A study of Mus musculus with 6 samples.

Results

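Retromer is the coat complex that lifts receptors out of endosomes and returns them to the Golgi apparatus or the cell surface. The 10 genes described here encode its core subunits (Vps35, Vps26a, Vps26b and Vps29), sorting nexins that work with it (Snx1, Snx2, Snx5 and Snx27) and the sorting receptors Sorl1 and Sort1. They were taken by gene symbol from the 17469 genes of the deposited table. Bone marrow stromal cells (BMSCs) of 6-month-old mice were grown in culture and sorted for red Ai9 reporter fluorescence before RNA sequencing. The 3 control libraries came from Ocn-Cre;Ai9 mice and the 3 TgAPPsweOCN libraries from TgAPPswe;Ocn-Cre;Ai9 mice. Cre recombinase, driven by the osteocalcin (OCN) promoter, and the Ai9 allele were thus shared by both groups. TgAPPsweOCN mice also carry human APP with the Swedish mutation behind the CAG promoter, with a loxP-flanked stop sequence that Cre removes. No control library with the transgene but without recombination was analysed here, and the study describes OCN-Cre activity in some neurons as well as in bone. Nothing in the labels says whether the libraries of a genotype came from separate mice or cultures, so the p-values measure the spread between these libraries, which may be technical.

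In cells, the Vps35, Vps26 and Vps29 proteins form a stable trimer on the endosome, and Vps26a and Vps26b are alternative forms of the same arm. Sorting nexins bind endosomal phosphoinositides. Those with a BAR domain bend the membrane into tubules, and Snx27 adds recognition of cargo tails. Sorl1 (SorLA) and Sort1 (sortilin) are VPS10-domain receptors that carry ligands between the Golgi apparatus, endosomes and the surface. Sorl1 binds APP and holds it away from amyloid-producing compartments, and the retromer pathway is best known in this setting for its links to Alzheimer and Parkinson disease.

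Both sorting receptors fell, and the core subunits and sorting nexins moved in both directions. Sort1 and Sorl1 fell to 27.5% and 42.8% of control, and Snx5 fell to 66.0%. Vps35 was 136% of control, and Vps29, Snx1, Snx2 and Vps26a lay between 120% and 126%. Vps26b and Snx27 were at 82.0% and 87.9%. At an adjusted p of at most 0.05, 5 of the 10 genes were raised and 5 were lowered, where 32.5% of all 12701 genes tested were raised and 31.5% were lowered. When a log2 fold change of 1 or more in either direction was required as well, 0 of the 10 were raised and 2 were lowered, Sorl1 and Sort1, against 8.9% of genes raised and 9.2% lowered. The median log2 fold change of the 10 genes was 0.04, and that of all genes tested was -0.02. The test was edgeR's quasi-likelihood test on estimated read counts, with Benjamini-Hochberg adjustment over all genes tested, and every fold change below is TgAPPsweOCN against control.

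Depth allowed all 10 genes to be read in each library. The libraries held 19340791 to 19801073 estimated counts in the control and 21677455 to 22037830 in TgAPPsweOCN, and the member genes took between 491 and 8568 of them per library. A total of 3 counts, below which a gene would be called undetected, equals 0.136 to 0.155 CPM (counts scaled to a fixed library total). Levels are also given as FPKM, fragments scaled for transcript length and for the library's total, which the authors computed and which is the scale on which genes are compared with each other. The trimmed-mean scaling (TMM) used for the test multiplied the library sizes by 1.07 to 1.08 in the control and by 0.91 to 0.94 in TgAPPsweOCN, a step that FPKM lacks. With no such step the median of all genes was -0.23 on the log2 scale, and the changes of the 10 genes whose call or size turned on this step are given on both scales below.

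The study describes these sorted cells as osteoblast progenitors, and the markers did not follow that name. The 15 myeloid markers summed to 22126 to 23307 FPKM in control libraries and 18178 to 21830 in TgAPPsweOCN libraries. The 15 stromal and osteoblast markers together reached 159 to 177 and 129 to 210 FPKM, with osteocalcin itself (Bglap) at a mean of 0.857 and 0.273 FPKM. Of these, 4 were raised (Col3a1, Alpl, Dcn and Lum) and 2 lowered (Sp7 and Pdgfrb), among them the matrix proteoglycan Dcn at 0.36, 0.61 and 0.37 FPKM in the control and 1.27, 10.3 and 6.38 FPKM in TgAPPsweOCN (edgeR adjusted p = 0.00137). Given the levels of both lists, the libraries are called here only by their genotype. Of the myeloid markers, 6 were raised and 6 lowered, among them the mannose receptor Mrc1 with a log2 fold change of -2.38, the growth factor receptor Csf1r with -1.49, and Adgre1 and Aif1 with 1.89 and 2.04. Summed levels of the other marker lists lay between 53.1 and 105 FPKM for neutrophils, 0.91 and 3.78 for lymphoid cells, 4.46 and 7.18 for endothelium and 0.03 and 0.58 for erythroid cells over the 6 libraries, and none of the markers in the table was at 0 in every library. In bulk samples, fewer cells of a type and less RNA per cell cannot be told apart, and the part of these myeloid and stromal shifts in the changes below was not tested. The table has 1 entry for App, and whether reads of the human transgene were counted in it was not tested. That entry was at 279 ± 3.50 FPKM (SD, n = 3) in the control and 330 ± 4.18 in TgAPPsweOCN.

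Sequence around an annotated start is shown for 4 genes: Vps26a and Vps26b, which encode alternative forms of the same arm and of which only Vps26b fell on both scales of the test, and Snx5 and Sorl1, which fell. The stretches are RefSeq's, on GRCm38.p6, from 250 bases before to 50 bases after an annotated start, and those of 6 of the 10 genes were used. They were searched on both strands for the E-box CACGTG, the ETS core GGAAGT, the GC box CCGCCC and the TATA box TATAAA, which do not overlap one another. Capitals mark matches to these motifs. Sorl1 lies at chr9:42124248-42124547 on the minus strand, Snx5 at chr2:144270523-144270822 on the minus strand, Vps26a at chr10:62486756-62487055 on the minus strand and Vps26b at chr9:27030045-27030344 on the minus strand.
Sorl1: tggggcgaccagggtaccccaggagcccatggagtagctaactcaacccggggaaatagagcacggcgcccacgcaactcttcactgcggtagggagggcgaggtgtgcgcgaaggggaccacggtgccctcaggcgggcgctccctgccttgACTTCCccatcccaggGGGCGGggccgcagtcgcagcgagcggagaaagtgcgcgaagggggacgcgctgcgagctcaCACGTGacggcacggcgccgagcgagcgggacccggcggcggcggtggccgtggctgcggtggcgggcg
Snx5: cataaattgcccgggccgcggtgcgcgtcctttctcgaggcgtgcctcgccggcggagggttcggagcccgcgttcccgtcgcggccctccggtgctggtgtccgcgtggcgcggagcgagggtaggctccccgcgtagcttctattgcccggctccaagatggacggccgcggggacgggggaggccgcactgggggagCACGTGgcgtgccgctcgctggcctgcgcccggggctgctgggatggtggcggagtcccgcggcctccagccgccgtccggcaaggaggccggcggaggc
Vps26a: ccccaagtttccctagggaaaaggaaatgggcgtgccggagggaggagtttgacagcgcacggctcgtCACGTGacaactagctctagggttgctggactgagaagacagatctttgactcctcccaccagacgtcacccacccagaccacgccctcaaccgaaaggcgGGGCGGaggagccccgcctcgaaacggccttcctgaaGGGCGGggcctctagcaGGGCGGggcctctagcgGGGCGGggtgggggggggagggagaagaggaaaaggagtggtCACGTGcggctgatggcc
Vps26b: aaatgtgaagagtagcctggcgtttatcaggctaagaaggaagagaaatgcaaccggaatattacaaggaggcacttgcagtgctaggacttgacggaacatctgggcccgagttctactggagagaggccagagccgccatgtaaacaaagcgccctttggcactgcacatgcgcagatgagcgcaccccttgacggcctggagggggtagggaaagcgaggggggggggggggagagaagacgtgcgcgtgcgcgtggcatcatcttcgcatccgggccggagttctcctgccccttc

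An E-box stood in 7.15% of the 32851 RefSeq promoters of this length, and in 3 of the 6 member genes searched: Sorl1, Snx5 and Vps26a, but not Vps26b, Vps29 or Snx1. The members were counted by gene, over every start searched, and the share is by promoter, so the count and the share are unlike measures. With the start counted as base 1, the E-box began at -19 in Sorl1, at -50 in Snx5, and at both -182 and 33 in Vps26a. GC boxes, present in 35.7% of promoters, stood at -81 in Sorl1 and at 4 places in Vps26a, while the ETS core (23.8% of promoters) was matched in Sorl1. None of the 4 motifs, TATA box included (13.6% of promoters), was matched in the Vps26b stretch. The stretches held 72.3%, 75.7%, 64.7% and 58.7% G and C in that order, where the median promoter held 52.7%. The Snx5 stretch lies inside the annotated gene, since the start it surrounds is downstream of the gene's 5′ end, while the other 3 surround the 5′ end. Sorl1 and Vps26a have a further annotated start each, not printed, of which that of Vps26a holds 2 E-boxes. The matches describe these letters only.

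The core subunits moved by small amounts. Vps35 (RefSeq GRCm38.p6, chr8:85260385-85299517), the scaffold that holds the trimer together, was at 70.3, 71.8 and 73.3 FPKM in control libraries 1 to 3 and at 86.0, 83.2 and 83.2 FPKM in TgAPPsweOCN libraries 1 to 3. All 3 TgAPPsweOCN libraries lay above all 3 control libraries. The log2 fold change was 0.44 (SE 0.05, adjusted p = 0.000118, edgeR's quasi-likelihood test). It remained past the threshold with library size as the only scaling, at 0.23 (edgeR adjusted p = 0.00319).

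Vps29 (chr5:122354328-122364984), which binds the far end of Vps35 and recruits regulators of Rab7, was at 68.8, 68.8 and 65.8 FPKM in the control and 81.9, 77.1 and 74.7 FPKM in TgAPPsweOCN. The groups did not overlap, with the lowest TgAPPsweOCN library above the highest control library. The log2 fold change was 0.33 (SE 0.06, edgeR adjusted p = 0.00189), and 0.11 (edgeR adjusted p = 0.115) with library size as the only scaling. In limma on log2(FPKM + 1), which also lacks TMM, it was 0.20 (adjusted p = 0.00823). Vps29 has fractional counts in all 6 libraries, and 5.78% of its 50-base transcript stretches also occur in other genes. The source of the fractions was not tested.

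The forms of the Vps26 arm differed in how firmly they changed. Vps26a (chr10:62454843-62486805) had 62.5, 65.5 and 64.9 FPKM in control and 64.8, 65.6 and 66.6 FPKM in TgAPPsweOCN libraries, and these values overlap. On the CPM scale of the test the groups did not overlap, and its log2 fold change was 0.27 (SE 0.05, edgeR adjusted p = 0.00166). With library size as the only scaling the value was 0.05 (edgeR adjusted p = 0.389), so its call depended on the scaling.

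Vps26b (chr9:27004502-27030094), which partners Vps35 in a retromer that handles a partly different cargo set, was at 11.9, 11.6 and 11.7 FPKM in the control. In TgAPPsweOCN it was at 8.19, 8.67 and 7.99 FPKM, below every control library. The log2 fold change was -0.29 (SE 0.05, edgeR adjusted p = 0.00168), and -0.50 with library size as the only scaling. This gene has fractional counts in all 6 libraries as well, though none of its 50-base stretches is shared with another gene.

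Taken as a ratio of FPKM, which does not depend on how libraries are scaled, Vps26b over Vps26a was 0.190, 0.177 and 0.181 in control and 0.126, 0.132 and 0.120 in TgAPPsweOCN libraries. Vps26b thus made up 15.0% to 16.0% of Vps26 FPKM in the control and 10.7% to 11.7% in TgAPPsweOCN. The log2 ratio differed by -0.53 with no overlap, at p = 0.1 in the two-sided exact permutation test, which is the smallest p that 3 libraries against 3 can give. Adjusted over the 4 ratios tested, p was 0.133.

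**Figure D1:**
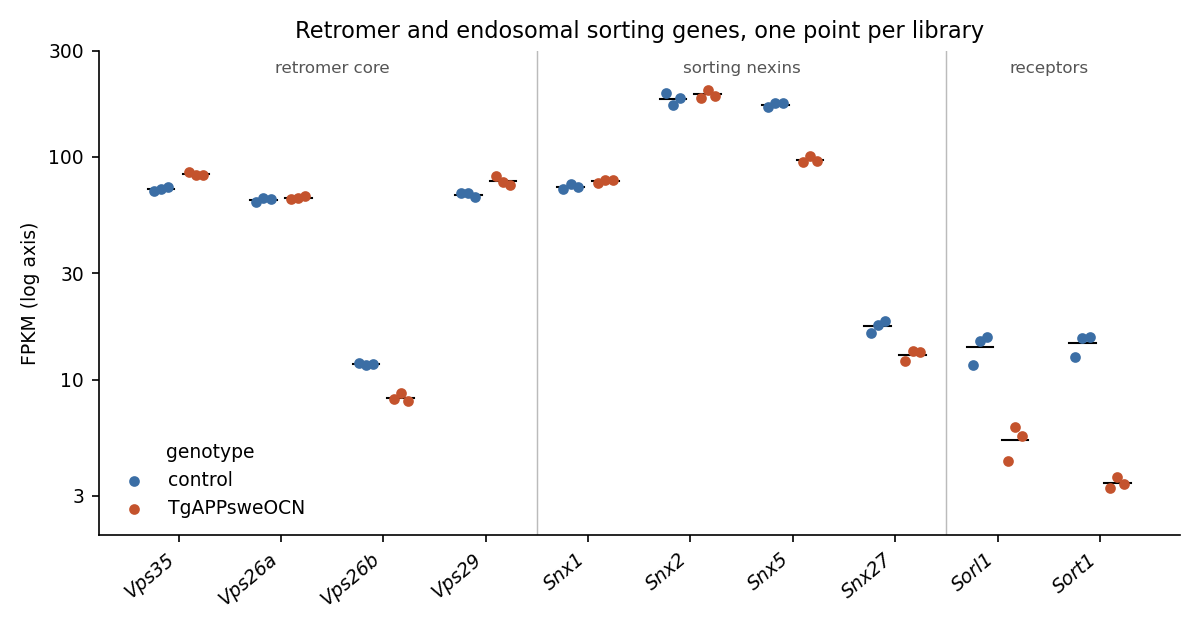
FPKM of the 10 genes on a log axis, with 1 point per library, control in blue and TgAPPsweOCN in orange, and a line at each mean of 3 libraries. Sort1 lies between 12.6 and 15.6 FPKM in the control and between 3.27 and 3.64 in TgAPPsweOCN, while Vps26a and Snx2 overlap on this scale.

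Among the sorting nexins with a BAR domain, Snx1 and Snx2 were slightly higher on the scale of the test and Snx5 was lower. Retromer-linked tubules are built from a pair of such nexins, with Snx1 or Snx2 on one side and Snx5, Snx6 or Snx32 on the other. Snx1 (chr9:66088127-66124886) was at 71.8, 75.7 and 73.2 FPKM in the control and at 76.2, 78.6 and 79.2 FPKM in TgAPPsweOCN. The groups were close but did not overlap, and the log2 fold change was 0.30 (SE 0.05, edgeR adjusted p = 0.000842). With library size as the only scaling it was 0.08 (edgeR adjusted p = 0.166).

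Snx2, a close relative of Snx1, had the highest mean of the 10 genes in both genotypes. It was at 193, 171 and 183 FPKM in the control and 185, 201 and 188 FPKM in TgAPPsweOCN. These FPKM ranges overlap. On the CPM scale the groups did not overlap, with a log2 fold change of 0.28 (SE 0.06, edgeR adjusted p = 0.00383), and with library size as the only scaling it was 0.07 (edgeR adjusted p = 0.349). Of the 50-base stretches of Snx2, 9.88% also occur in the pseudogene Gm12543 and 5.14% in the related Snx30. The counts of Snx2 were whole numbers in all 6 libraries. The Snx2 over Snx1 ratio of FPKM was 2.69, 2.25 and 2.50 in the control and 2.43, 2.56 and 2.38 in TgAPPsweOCN. These ranges overlap, and the log2 ratio differed by -0.014 (exact permutation test, p = 1, adjusted p over the 4 ratios = 1).

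Snx5 (chr2:144250123-144270902), the partner of Snx1 and Snx2 that binds the tails of cargo proteins, fell. It was at 168, 174 and 174 FPKM in the control and at 94.5, 101 and 95.6 FPKM in TgAPPsweOCN. The highest TgAPPsweOCN library was far below the lowest control library. Its log2 fold change was -0.60 (SE 0.05, edgeR adjusted p = 1.57e-05). With library size as the only scaling the fold change was -0.81.

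Snx6 and Snx32, relatives of Snx5 that can take the same position, were chosen after their values were seen. Snx32 fell with Snx5, from 16.7, 14.2 and 14.5 FPKM in the control to 9.70, 11.4 and 10.7 FPKM in TgAPPsweOCN (log2 fold change -0.33, edgeR adjusted p = 0.00882). Snx6 was higher in TgAPPsweOCN (0.90, edgeR adjusted p = 5.74e-06). It was at 39.4, 38.1 and 39.5 FPKM in the control and 57.8, 68.7 and 62.1 FPKM in TgAPPsweOCN. The ratio of Snx6 to Snx5 was 0.227 ± 0.00749 (SD, n = 3) in the control and 0.646 ± 0.0325 in TgAPPsweOCN, given as a description with no test. Snx5 was still the more abundant of the pair in every library.

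Snx27 (chr3:94497542-94582736), the only nexin with a PDZ domain and the link between retromer and receptors bound for the surface, was at 16.3, 17.5 and 18.4 FPKM in the control. It was at 12.1, 13.5 and 13.3 FPKM in TgAPPsweOCN, below every control library. Its log2 fold change of -0.19 (SE 0.07) had an edgeR adjusted p of 0.036, the weakest of the 10. With library size as the only scaling the fold change was -0.40 (edgeR adjusted p = 0.00136), and in limma on log2(FPKM + 1) it was -0.40 (adjusted p = 0.00133). In DESeq2 the adjusted p was 0.0556, and without control library 2, control library 3, TgAPPsweOCN library 1 or TgAPPsweOCN library 3 the edgeR adjusted p was 0.0908, 0.112, 0.106 and 0.0749.

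The sorting receptors fell furthest. Sorl1 (chr9:41964709-42124297), the receptor that binds APP, was at 11.6, 14.9 and 15.5 FPKM in the control and at 4.32, 6.14 and 5.55 FPKM in TgAPPsweOCN. Control library 1 and TgAPPsweOCN library 1 were the lowest of their groups, and the groups did not overlap. The log2 fold change was -1.23 (SE 0.12, edgeR adjusted p = 4.38e-05), and 6.50% of all genes tested fell as far or farther. With library size as the only scaling the fold change was -1.44 (edgeR adjusted p = 3.39e-05).

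Sort1 (chr3:108283974-108361519), the receptor that carries lysosomal enzymes and progranulin, was at 12.6, 15.4 and 15.6 FPKM in the control. In TgAPPsweOCN it was at 3.27, 3.64 and 3.40 FPKM, and no library came near the control range. Its log2 fold change was -1.86 (SE 0.09, edgeR adjusted p = 7.3e-07), with 1.99% of all genes tested falling as far or farther. With library size as the only scaling the fold change of Sort1 was -2.08 (edgeR adjusted p = 8.57e-07). Of its 50-base stretches, 3.81% overlap the opposite-strand transcript Gm12523. Whether the counting used strand is not given in the sources used here, so reads of the 2 transcripts might not have been told apart there. The same holds for 3.63% of Snx5 with Mgme1, 4.59% of Vps29 with Fam216a, 1.37% of Vps35 with Orc6 and 0.799% of Sorl1 with Gm16214.

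The receptors were also set against each other and against the core, and neither ratio could pass a threshold of 0.05 with 3 libraries per genotype. Sorl1 over Sort1 was 0.924, 0.968 and 0.995 in the control and 1.32, 1.69 and 1.63 in TgAPPsweOCN, below 1 in every control library and above 1 in every TgAPPsweOCN library. Sorl1 over Vps35 was 0.166, 0.208 and 0.212 in the control and 0.0503, 0.0738 and 0.0667 in TgAPPsweOCN. Neither ratio overlapped between genotypes, and the log2 ratios differed by 0.68 and -1.63. Both gave p = 0.1 in the exact permutation test and 0.133 adjusted over the 4 ratios.

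**Figure D2:**
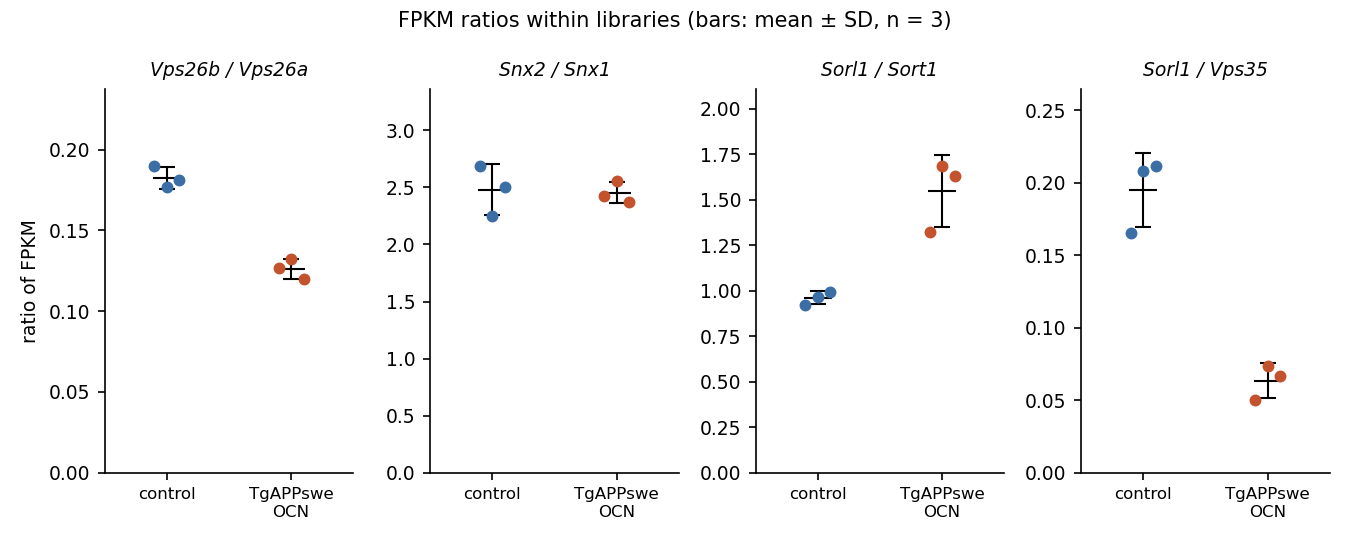
Ratios of FPKM within each library for the 4 pairs tested, on linear axes from 0, with points for libraries and bars for the mean ± SD (n = 3). Snx2 over Snx1 overlaps between genotypes, while Vps26b over Vps26a and Sorl1 over Vps35 are lower and Sorl1 over Sort1 is higher in every TgAPPsweOCN library.

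These shifts changed the order of the levels per length. In the control the order of mean FPKM was Snx2 (182), Snx5 (172), Snx1 (73.6), Vps35 (71.8), Vps29 (67.8), Vps26a (64.3), Snx27 (17.4), Sort1 (14.5), Sorl1 (14.0) and Vps26b (11.7). The libraries of Snx2 and Snx5, of Snx1 and Vps35, of Sort1 and Sorl1, and of Sorl1 and Vps26b overlapped, so those neighbours were not separated. In TgAPPsweOCN the order was Snx2 (191), Snx5 (97.2), Vps35 (84.1), Snx1 (78.0), Vps29 (77.9), Vps26a (65.6), Snx27 (12.9), Vps26b (8.28), Sorl1 (5.34) and Sort1 (3.44), and only Snx1 and Vps29 overlapped with their neighbour. Both receptors dropped below Vps26b, and Vps35 rose above Snx1.

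All 10 genes had CPM values that did not overlap between genotypes, which was also true of 69.7% of all genes tested. With library size as the only scaling, 1 of the 10 genes was raised (Vps35) and 5 were lowered, in place of 5 and 5, and at that scaling 22.1% of all genes tested were raised and 45.9% lowered. The falls of Vps26b, Snx5, Snx27, Sorl1 and Sort1 and the rise of Vps35 passed the threshold on either scale.

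**Figure D3:**
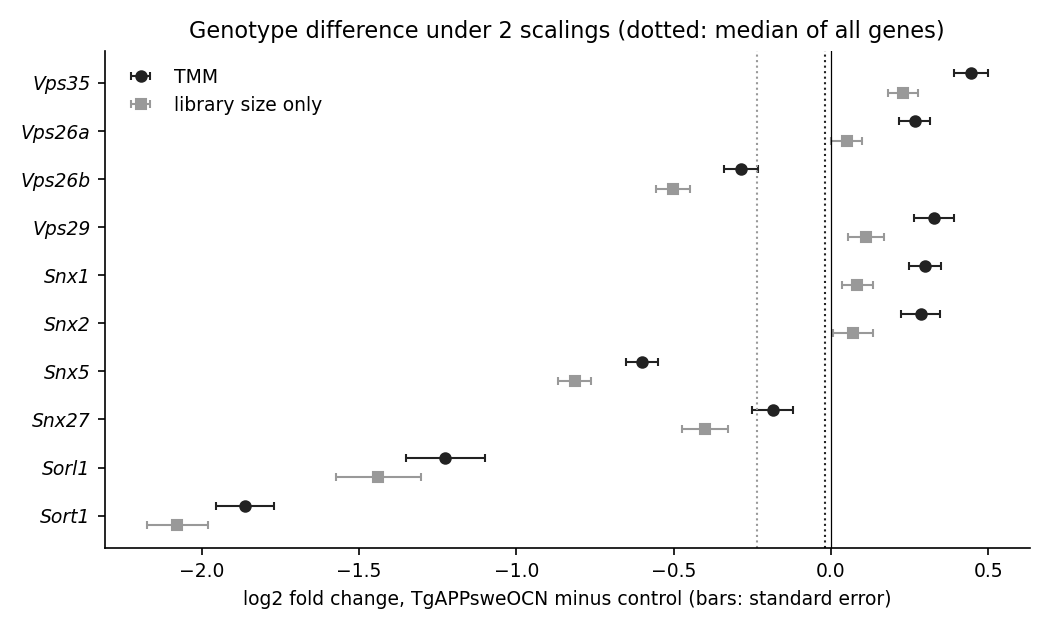
Log2 fold change of each gene with its standard error, with TMM scaling (black circles) and with library size only (grey squares), and dotted lines at the medians of all genes (-0.02 and -0.23). Vps26a, Vps29, Snx1 and Snx2 lie above 0 on both scales, and of these 2 scalings pass the test with TMM and not with library size only.

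The rest of the sorting machinery was followed with 11 lists of 141 genes, of which 135 were tested. In all, 61 (45.2%) were raised and 33 (24.4%) were lowered at an adjusted p of at most 0.05 in edgeR's quasi-likelihood test, where the shares of all genes were 32.5% and 31.5%, and the median log2 fold change was 0.10. With library size only, 34 were raised and 57 lowered, where the shares of all genes moved to 22.1% and 45.9%. By list, that scaling gave 7 raised and 12 lowered among the other sorting nexins, 2 and 3 in the WASH complex, 3 and 4 among recruitment factors, 4 and 4 in retriever and CCC, 3 and 4 among Golgi adaptors and 3 and 3 among other cargo. With the fold threshold, 4 (2.96%) were raised and 1 (0.741%) was lowered, where the shares of all genes were 8.9% and 9.2%, and 3 were lowered with library size only.

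Among 24 other sorting nexins tested, 11 were raised and 9 lowered, with a median of -0.02. Snx10, which acts with the vacuolar proton pump, had the largest rise, from a mean of 31.1 to 52.5 FPKM (log2 fold change 0.97, edgeR adjusted p = 2.81e-05). Snx29 had the largest fall, from 8.41, 7.30 and 8.46 FPKM in the control to 1.46, 2.65 and 2.01 FPKM in TgAPPsweOCN (-1.75, edgeR adjusted p = 4.03e-05).

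The machinery that retromer recruits or is recruited by moved unevenly. Of the 5 WASH complex genes, which make branched actin on endosomes, 2 were raised and 0 lowered, with Washc5 at 0.77 (edgeR adjusted p = 5.51e-06) and Washc4 at 0.51. Of 9 recruitment factors and cofactors, 3 were raised and 2 lowered. Ehd1, an ATPase that cuts recycling tubules, rose from 73.2, 59.8 and 64.4 FPKM in the control to 292, 255 and 273 FPKM in TgAPPsweOCN, with a log2 fold change of 2.27 (edgeR adjusted p = 3.42e-07). The largest fall in that list was Mon1a, part of the exchange factor for Rab7, at -0.51 (edgeR adjusted p = 0.00435).

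Retriever and its CCC partner recycle cargo in parallel with retromer. Of their 15 genes, 8 were raised and 2 lowered, with a median of 0.29, the largest rise in Commd10 (0.62, edgeR adjusted p = 6.25e-05) and the largest fall in Ccdc22 (-0.43, edgeR adjusted p = 0.000818). Of 10 Golgi adaptors that load sorting receptors into carriers, 4 were raised and 4 lowered, with a median of 0.02. Ap1s1, a small subunit of the AP-1 coat, was at 0.79 (edgeR adjusted p = 2.27e-05), and Pacs1, which links cargo to AP-1, was at -0.60 (edgeR adjusted p = 0.000185).

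Other cargo of the pathway moved in both directions. Of 7 tested, 3 were raised and 2 lowered, and the VPS10 receptors Sorcs1 and Sorcs3 were too low to test. The iron transporter Slc11a2 rose from 31.2, 30.8 and 32.6 FPKM to 79.6, 69.0 and 74.2 FPKM (log2 fold change 1.49, edgeR adjusted p = 9.13e-07). The glucose transporter Slc2a1 rose from 22.3, 23.4 and 22.3 FPKM to 54.4, 36.9 and 45.4 FPKM (1.23, edgeR adjusted p = 7.23e-05).

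**Figure D4:**
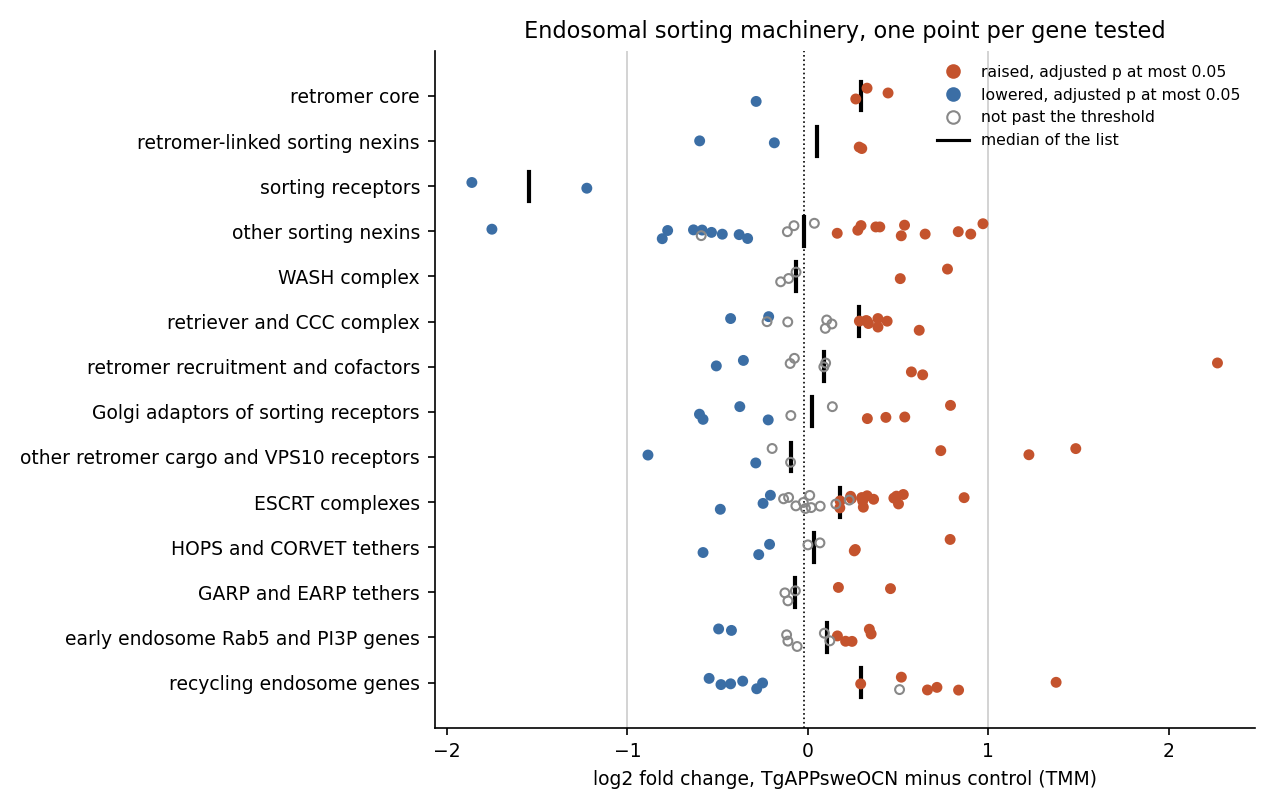
Log2 fold change (TMM) of every gene tested in the 3 member groups and the 11 lists, filled where the adjusted p was at most 0.05, with a black line at each median, a dotted line at the median of all genes and grey lines at log2 fold changes of 1 in either direction. Ehd1 at 2.27 and Sort1 at -1.86 are the outermost points.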

How the data were processed

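RNA of sorted, cultured BMSCs was sequenced on the DNBSEQ platform in 6 libraries, 3 per genotype. The submitters' processing notes list HISAT2 2.0.4, Bowtie2 2.2.5, RSEM 1.2.12 and DESeq2 1.4.5 with the mm10 genome. Reads of ribosomal RNA and low quality were removed by the authors. The annotation and the strand setting are not given in the sources used here. The study's methods accepted RNA of low integrity numbers, and the values per library are not given there.

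The deposited table holds estimated counts per gene, fractional in 13.26% to 14.42% of genes per library, and FPKM that the authors computed. Another deposited table holds the authors' own log2 ratios and p-values and was set aside. The estimates were made whole by rounding, filtered with filterByExpr (12701 of 17469 genes kept) and scaled by TMM, and genotypes were compared with edgeR 4.0.16 (R 4.3.3), quasi-likelihood test, Benjamini-Hochberg adjustment over all genes tested. Genes were called at an adjusted p of at most 0.05, and also when the log2 fold change was 1 or more in either direction. Standard errors were taken from the fold change and its F statistic. FPKM ratios of 4 pairs were compared by a two-sided exact permutation test. Alternatives used DESeq2 1.42.0 and limma 3.58.1, other scalings and filters, a replicate block, and each library left out. The pipeline was tested on simulated data.

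All 10 genes were described. From each list, the text names the genes of the largest rise and fall that passed the test and those past a log2 fold change of 1, plus Snx6, Snx32, Washc4 and the genes of shared sequence. A gene that this rule would name is not reported here. The genes and lists were chosen with earlier results of these data known. Of 141 listed genes all matched, 1 by its Entrez identifier. Coordinates and promoters are RefSeq's on GRCm38.p6, and shared 50-base stretches were read from reference transcripts. The variance between libraries of a genotype, as a median over genes, was 2.55 to 6.35 times that of counting alone. No library was therefore treated as a duplicate.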

Additional observations from a re-analysis of the deposited data

How the results depend on the processing

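The falls of Vps26b, Snx5, Sorl1 and Sort1 and the rise of Vps35 kept their direction and their side of the threshold under all 14 alternatives. The number of member genes raised was 5, but 1 with library size only and 2 in limma on log2(FPKM + 1) and on log2(FPKM + 0.1). In the same order of settings, the wider lists had 34, 33 and 33 genes raised (61 in edgeR with TMM), 57, 61 and 60 lowered (33) and 3, 2 and 2 lowered by a log2 fold change of 1 (1). The median log2 fold change of all genes was -0.23, -0.16 and -0.22 there. Leaving out each library gave 5 to 5 member genes raised, 4 to 5 lowered and 2 to 2 lowered with the fold threshold, and 52 to 60 raised and 26 to 33 lowered in the lists. The log2 difference of the Snx2 over Snx1 ratio turned to 0.046 and 0.0091 without control library 1 and TgAPPsweOCN library 3, over a range of -0.082 to 0.046.

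With the replicate number as a block, all 10 member genes kept their call and 5 were raised, and all genes had 4040 raised and 3905 lowered in place of 4122 and 4007. Deviations of same-numbered libraries correlated at 0.013, 0.0066 and 0.14, and those of differently numbered libraries at -0.052 to 0.025. With 3 libraries per genotype, these correlations cannot decide whether the numbers pair the libraries. In the paired exact permutation test of the ratios, the smallest p is 0.25.

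The calls of Vps26a, Vps29, Snx1 and Snx2 depend on the scaling, 3 libraries per genotype limit the exact tests, and RNA integrity per library was not analysed here.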

Other observations

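Later steps of the endosomal route, beyond the complexes described above, moved in both directions. Of 27 ESCRT genes tested, which sort ubiquitinated cargo into vesicles inside the endosome, 14 were raised and 3 lowered, with a median log2 fold change of 0.18. Of all genes tested, 32.5% were raised and 31.5% lowered. With library size as the only scaling, 5 ESCRT genes were raised and 9 lowered, where 22.1% of all genes were raised and 45.9% lowered. Ist1 rose from 42.0, 42.8 and 41.9 FPKM in the control to 66.1, 70.5 and 65.2 FPKM in TgAPPsweOCN (0.87, edgeR's quasi-likelihood test, adjusted p = 2.44e-06), and Mvb12b had the largest fall (-0.49, edgeR adjusted p = 8.94e-05). Of 8 HOPS and CORVET tethers, which dock endosomes with each other and with lysosomes, 3 were raised and 3 lowered. Their outermost values were 0.79 for Vps33a (edgeR adjusted p = 2.19e-05) and -0.58 for Vps39 (edgeR adjusted p = 7.05e-05). Of 5 GARP and EARP genes, which tether endosome-derived carriers, 2 were raised, led by Vps50 at 0.46 (edgeR adjusted p = 0.000896).

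On early endosomes, 5 of 12 genes of Rab5 and its lipid kinase were raised and 2 lowered. Against those same shares of all genes, the counts with library size only were 0 and 5, and those of HOPS and CORVET were 1 and 4, of GARP and EARP 1 and 3, and of the recycling genes below 5 and 6. The Rab5 exchange factor Rabgef1 was at 0.35 (edgeR adjusted p = 0.00218), and the kinase Pik3c3, which makes the phosphoinositide that sorting nexins bind, fell from 15.4, 15.9 and 16.7 FPKM to 10.7, 9.49 and 9.18 FPKM (-0.49, edgeR adjusted p = 0.00072). Of 13 recycling endosome genes, 6 were raised and 6 lowered. Rab10 rose from 53.2, 63.3 and 62.4 FPKM to 132, 134 and 135 FPKM (1.38, edgeR adjusted p = 1.13e-06), and Ehd2, a relative of Ehd1, had the largest fall (-0.55, edgeR adjusted p = 0.03).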
